A study of Mus musculus with 23 samples.

Results

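Described here are 10 mature microRNAs of the paralog clusters miR-106a-363 and miR-106b-25, 5 from each, in 6 populations of mouse group 2 innate lymphoid cells (ILC2) and CD4 T cells. They were chosen by name. The miR-106a-363 members were mmu-miR-106a-5p, mmu-miR-18b-5p, mmu-miR-20b-5p, mmu-miR-20b-3p and mmu-miR-363-3p. The miR-106b-25 members were mmu-miR-106b-5p, mmu-miR-106b-3p, mmu-miR-93-5p, mmu-miR-93-3p and mmu-miR-25-3p (the species prefix is left out below). They are 10 of 1256 microRNA entries listed in 4 deposited count tables, and all 10 were among the 384 microRNAs that passed a filter on low counts. The miR-20b-3p entry was listed in 3 of the 4 tables and was taken as 0 in the other.

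The study sequenced small RNA from 23 libraries to compare ILC2 with Th2 cells, the innate and the adaptive source of type 2 cytokines in the allergic lung. Lung ILC2 (n = 4) were sorted as CD45+Thy1+lin-CD4-CD25+ST2+ cells from wild-type lungs, with no treatment given. IL-33 ILC2 (n = 4) passed the same gate after 500 ng of IL-33 by the oropharyngeal route for 3 days, and cultured ILC2 (n = 4) had spent 10 days in vitro with IL-33, TSLP and IL-7 at 10 ng/ml. CD4 T cells (n = 4) were CD4+CD62LhiCD44loCD25-CD69- cells of wild-type spleen and lymph nodes, untreated. OVA-lung Th2 (n = 3) were CD45+CD11c-CD11b-CD4+CD3+4get+ lung cells of Il4tm1LKy mice, which report Il4 transcription, after sensitization with 50 µg of ovalbumin in alum over 3 weeks and airway challenge with 50 µg of ovalbumin for 3 days. Cultured Th2 (n = 4) were bead-selected CD4+ cells of wild-type spleen and lymph nodes kept for 5 days with anti-CD3, anti-CD28, IL-4 (500 U/ml) and anti-IFNg (10 µg/ml). No label gives an age, or separate mice for the libraries within a group, so the p-values measure the spread between these samples only. All ILC2 came from lung, and of the T cell groups OVA-lung Th2 alone did.

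A microRNA guides Argonaute to messenger RNAs mainly through its seed, the bases near its 5′ end, and lowers their stability and translation. The miR-17-92 cluster is known for supporting lymphocyte proliferation and survival, and miR-106a-363 and miR-106b-25 are its paralogs. The miR-106b-25 hairpins lie within Mcm7, which encodes a subunit of the replicative DNA helicase. The miR-106a-363 cluster lies on the X chromosome and is known for low levels in most adult tissues.

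On the mouse build GRCm38.p6, with hairpins placed by RefSeq and host genes by the GENCODE annotation of GRCm38, the miR-106a-363 hairpins span 875 bases of the minus strand at chrX:52741693-52742567, whose 5′ end overlaps the last bases of the processed transcript Kis2 (chrX:52742563-52744960). The miR-106b-25 hairpins span 498 bases of the minus strand at chr5:138165321-138165818, in an intron of both protein-coding Mcm7 transcripts that cover them (gene chr5:138164583-138172422). All 10 members matched a RefSeq mature sequence. The sequences below are shown because 4 members share 1 seed across the clusters and because near copies in the miR-17-92 cluster (chr14:115043671-115044506, plus strand) differ from members by few bases. Capitals mark the seed, bases 2 to 8, and all run 5′ to 3′. The miR-106a-363 members come first, then the miR-106b-25 members, then the near copies.
miR-106a-5p: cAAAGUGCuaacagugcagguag
miR-20b-5p: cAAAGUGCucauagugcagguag
miR-18b-5p: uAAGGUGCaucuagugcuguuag
miR-363-3p: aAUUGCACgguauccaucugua
miR-20b-3p: aCUGCAGUgugagcacuucuag
miR-106b-5p: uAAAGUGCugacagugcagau
miR-93-5p: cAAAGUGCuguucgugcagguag
miR-25-3p: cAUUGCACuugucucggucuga
miR-106b-3p: cCGCACUGuggguacuugcugc
miR-93-3p: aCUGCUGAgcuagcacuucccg
miR-17-5p: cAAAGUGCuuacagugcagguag
miR-20a-5p: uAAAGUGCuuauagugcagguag
miR-18a-5p: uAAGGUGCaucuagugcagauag
miR-92a-3p: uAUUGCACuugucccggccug

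The seed AAAGUGC is shared by miR-106a-5p, miR-20b-5p, miR-106b-5p and miR-93-5p, and by miR-17-5p and miR-20a-5p. The seed AUUGCAC is shared by miR-363-3p, miR-25-3p and miR-92a-3p, while miR-18b-5p shares AAGGUGC with miR-18a-5p. With positions counted from the 5′ end and the miR-17-92 base first, miR-106a-5p differs from miR-17-5p only by U10A, 1 of 23 bases. miR-20b-5p differs from miR-20a-5p by U1C and U10C, and miR-18b-5p from miR-18a-5p by A18U and A20U. How reads of such near copies were divided in counting is not given in the sources used here, so the levels of miR-106a-5p, miR-20b-5p and miR-18b-5p are uncertain to that extent.

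Totals lay between 84911 and 28371902 counts per library (median 832213), so that 3 counts, the limit a count of 0 allows, correspond to 0.106 to 35.3 CPM (counts per 1000000 counts of the library, covering counting error only). The share of miR-21a-5p, which takes counts from every other microRNA, ran from 1.69% to 82.2%. The hematopoietic markers miR-142a-3p and miR-142a-5p had counts in all 6 groups and together held 0.153% to 12.5% of a library. Each deposited count table holds 1 library of each group, except that the last has no OVA-lung Th2. The libraries of a table share a replicate number and are called sets 1 to 4. Deviations from the group means correlated within sets, so fits were made without and with the set as a block.

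The miR-106b-25 cluster was the more abundant. Averaged over the 23 libraries, miR-93-5p stood at 12180 CPM and ranked 18 of all entries, followed by miR-25-3p at 10280, miR-106b-5p at 5101 and miR-106b-3p at 1304 CPM. The most abundant miR-106a-363 member, miR-20b-5p, stood at 690 CPM, followed by miR-106a-5p at 379 and miR-363-3p at 183 CPM. The remaining members were miR-93-3p at 66.8, miR-18b-5p at 35.8 and miR-20b-3p at 6.04 CPM. All 4 of the abundant miR-106b-25 members had counts in 23 of 23 libraries, miR-106a-5p, miR-20b-5p and miR-363-3p in 21, miR-93-3p in 15, miR-18b-5p in 14 and miR-20b-3p in 8.

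**Figure D1:**
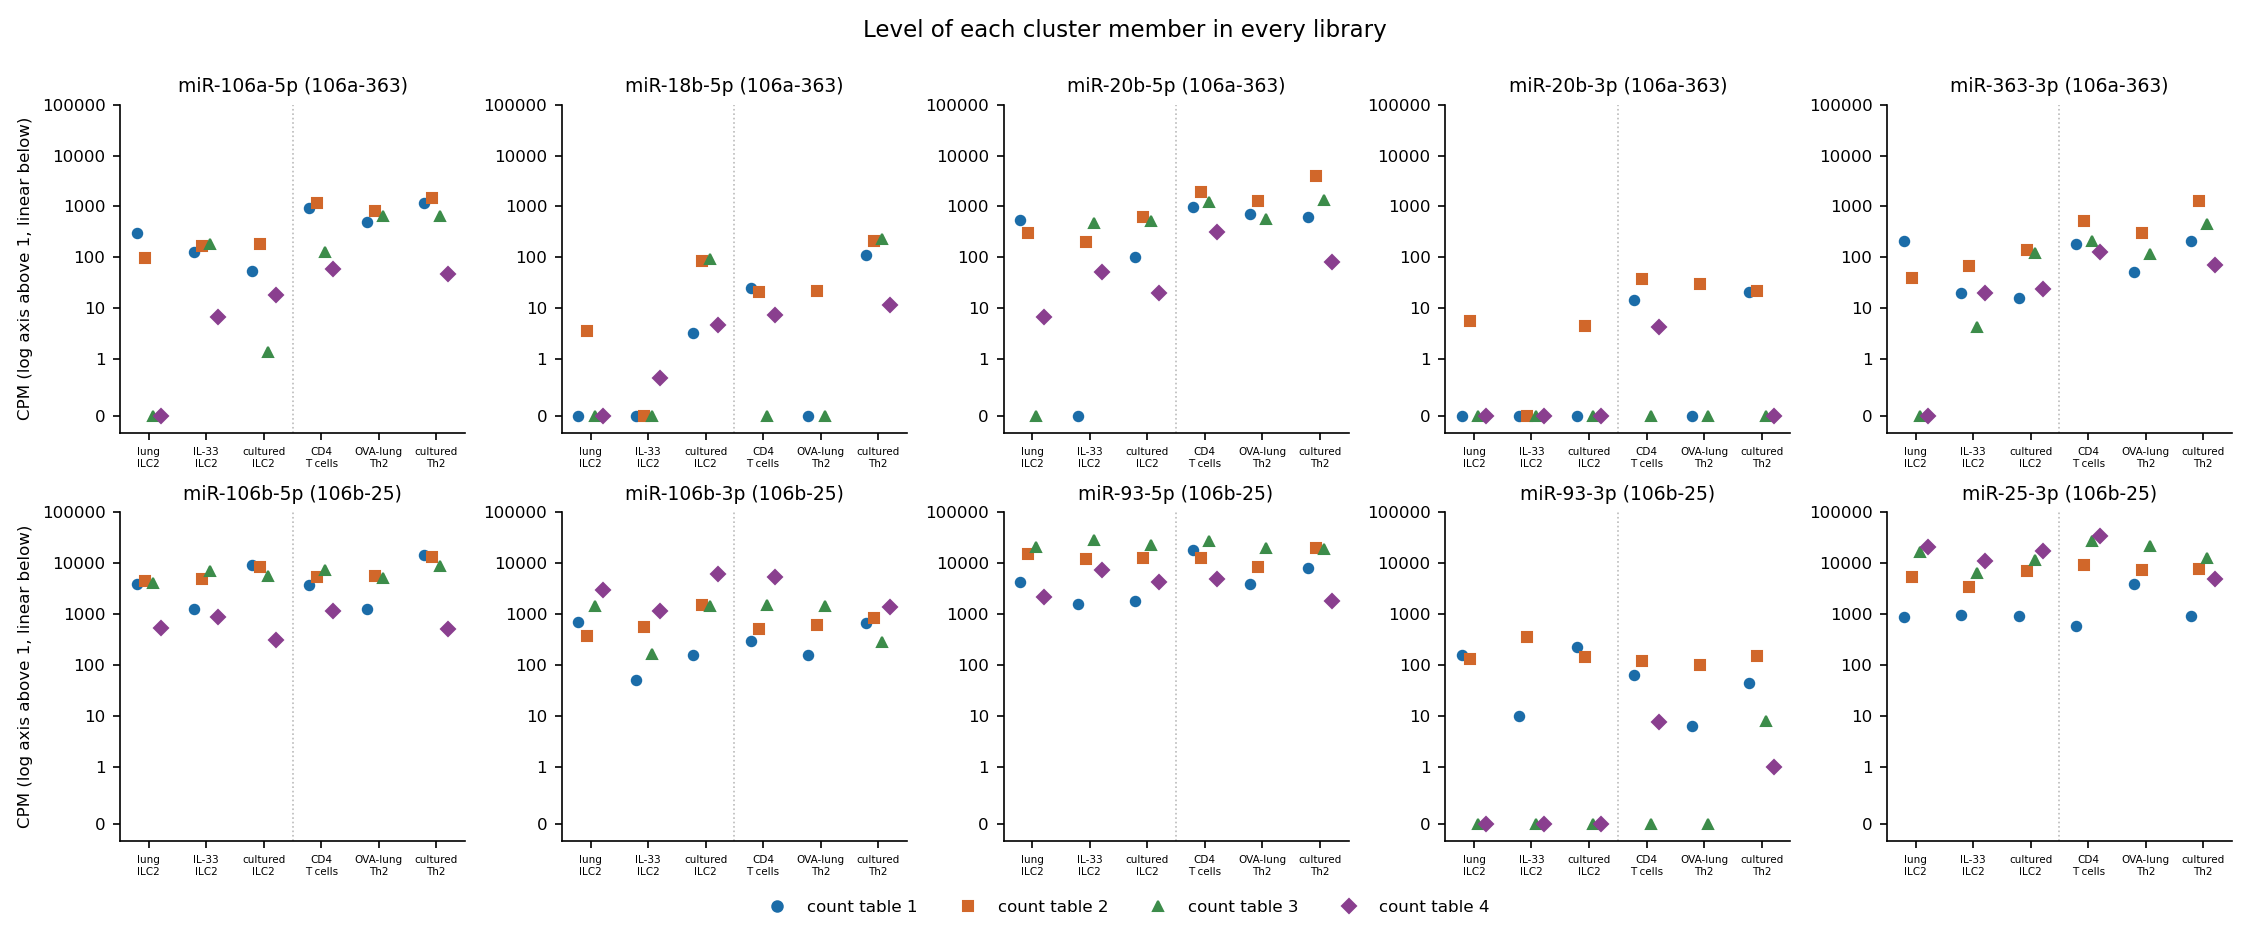
CPM of each of the 10 members (y axis, logarithmic above 1 and linear below) in each of the 23 libraries, by group on the x axis, with symbols for the set and a dotted line between ILC2 and T cell groups. The upper row holds the miR-106a-363 members, of which miR-106a-5p reaches 299 CPM at most in ILC2 and 1463 CPM in cultured Th2, and the lower row the miR-106b-25 members, whose groups overlap.

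miR-20b-5p, a seed sister of miR-17-5p, was lower in ILC2 than in T cells within every set. Its levels in sets 1 to 4 were 532, 308, 0 and 6.84 CPM in lung ILC2, 0, 201, 465 and 52.6 CPM in IL-33 ILC2, and 101, 626, 530 and 20.4 CPM in cultured ILC2. They were 993, 1949, 1204 and 319 CPM in CD4 T cells, 708, 1253 and 577 CPM in OVA-lung Th2 (sets 1 to 3), and 634, 3989, 1313 and 81.6 CPM in cultured Th2. In each of the 4 sets every ILC2 library lay below every T cell library, although the ranges of the lineages overlapped when the sets were pooled. Of the 384 tested microRNAs 0.521% (2, miR-20b-5p and its relative miR-17-5p) were separated in this way in all 4 sets. The pattern was chosen for description after the values were seen. With TMM scaling miR-20b-5p was separated in 3 sets, and with size factors in 4.

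miR-106a-5p, the first member of the X-linked cluster, was separated in 3 of the 4 sets under all 3 scalings, and 2.08% of the tested microRNAs were separated in at least 3 by library totals. Its levels were 299, 97.7, 0 and 0 CPM in lung ILC2, 129, 167, 185 and 6.75 CPM in IL-33 ILC2, and 55.2, 180, 1.41 and 18.0 CPM in cultured ILC2. They were 952, 1153, 126 and 59.7 CPM in CD4 T cells, 505, 797 and 636 CPM in OVA-lung Th2, and 1187, 1463, 648 and 46.2 CPM in cultured Th2. In the third set IL-33 ILC2 lay above CD4 T cells, and in the other sets no ILC2 library did. In the lung ILC2 libraries 3 and 4 the count was 0, at totals where 3 counts are 35.0 and 10.3 CPM.

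miR-363-3p, which carries the seed of miR-92a-3p, was separated in 2 sets (3 with size factors). By library totals, 5.47% of the tested microRNAs were separated in at least 2. miR-363-3p stood at 211, 39.7, 0 and 0 CPM in lung ILC2, 19.8, 66.9, 4.24 and 20.2 CPM in IL-33 ILC2, and 16.3, 141, 119 and 24.0 CPM in cultured ILC2. The T cell levels were 184, 528, 214 and 129 CPM in CD4 T cells, 52.4, 298 and 118 CPM in OVA-lung Th2, and 213, 1284, 452 and 70.8 CPM in cultured Th2. Lung ILC2 library 1 was the ILC2 library in which it was highest, above CD4 T cell library 1 and OVA-lung Th2 library 1 of the same set.

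The last 2 members of the cluster were sparse. miR-18b-5p had counts in 1 lung ILC2 library (3.54 CPM) and 1 IL-33 ILC2 library (0.675 CPM), but in all 4 cultured ILC2 libraries (3.25, 86.0, 92.7 and 4.81 CPM). It stood at 24.6, 21.0, 0 and 7.54 CPM in CD4 T cells, at 22.1 CPM in 1 of 3 OVA-lung Th2 libraries, and at 112, 207, 226 and 11.8 CPM in cultured Th2. Both cultured groups were thus above the corresponding uncultured cells in 4 of 4 sets by the values given. For ILC2 the direction is not settled in sets 1 and 4. There lung ILC2 had no count, where 3 counts are 21.9 and 10.3 CPM, above the 3.25 and 4.81 CPM of cultured ILC2. The share of tested microRNAs with this pattern was not computed. miR-20b-3p, the other arm of the miR-20b hairpin, was at 0 in all IL-33 ILC2 libraries and reached at most 37.1 CPM, in CD4 T cell library 2.

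In the contrast of the 3 ILC2 groups with the 3 T cell groups, added after the values were seen, 2 of the 5 members of miR-106a-363 and 0 of the 5 of miR-106b-25 passed an adjusted p of 0.05 without the block. The test was edgeR's quasi-likelihood test with Benjamini-Hochberg adjustment over 384 microRNAs. Both were lower in ILC2, miR-106a-5p by a log2 difference of −3.30 ± 0.97 (SE, adjusted p = 0.0178) and miR-20b-3p by −4.66 ± 1.50 (adjusted p = 0.0351). Of all tested microRNAs 10.7% were called in this contrast and 5.47% were called lower. At an unadjusted p below 0.05, 5 of the 10 members passed beside 105 of the 384 microRNAs, and DESeq2 called 4 members, miR-20b-3p not among them (its adjusted p was NA). Without the block miR-20b-3p was not called with library totals (adjusted p = 0.0593), with no filter (0.158) or by limma (−1.83 on log2(RPM + 1), adjusted p = 0.212, and −0.74 on log2(RPM + 10), adjusted p = 0.186).

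With the set as a block, all 5 members of miR-106a-363 were called lower in ILC2 and 1 of 5 of miR-106b-25, beside a background of 23.4% called and 14.3% called lower. In edgeR's test with the block, miR-106a-5p differed by −3.28 ± 0.72 (adjusted p = 0.000753), miR-20b-5p by −2.58 ± 0.68 (adjusted p = 0.0048) and miR-363-3p by −2.75 ± 0.80 (adjusted p = 0.0118). The sparse miR-18b-5p differed by −3.18 ± 1.06 (adjusted p = 0.0284) and miR-20b-3p by −4.58 ± 1.46 (adjusted p = 0.0214), the latter from 2 ILC2 libraries with any count. The miR-106b-25 member called was miR-25-3p, at −1.18 ± 0.30 (adjusted p = 0.00339). The other 4 differed by −0.73 to −0.86 with adjusted p from 0.116 to 0.64. The median log2 difference was −3.18 over miR-106a-363, −0.79 over miR-106b-25 and −0.48 over all 384 microRNAs. Whether the clusters differ in this contrast was not tested.

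Scaling moved the whole set of differences in that contrast. With the block the median over all microRNAs was −0.48 with TMM, −0.56 with size factors and −0.04 with library totals, and the calls split into 35 higher and 55 lower, 32 and 57, and 50 and 36. The members called numbered 6, 6 and 4, and the 4 with library totals did not include miR-25-3p (−0.70, adjusted p = 0.11) or miR-18b-5p (−2.90, adjusted p = 0.0571). miR-106a-5p was called with and without the block under each of these scalings, and lost the call without the block when OVA-lung Th2 library 1 or 3 was left out (adjusted p up to 0.0627). With the block miR-25-3p lost it without OVA-lung Th2 library 1 (adjusted p = 0.249), and miR-20b-3p without OVA-lung Th2 library 2 or 3 or cultured Th2 library 1. miR-18b-5p lost it in 12 of 23 such fits, those leaving out lung ILC2 2 or 4, cultured ILC2 1, 2 or 4, CD4 T cells 1, 2 or 4, any OVA-lung Th2 library or cultured Th2 library 3, with an adjusted p up to 1. Without the block, miR-20b-3p was called in 11 of 23, and not when OVA-lung Th2 library 1, 2 or 3, cultured Th2 library 1, CD4 T cell library 2 or any of lung ILC2 3 and 4, IL-33 ILC2 1, 2 and 4 and cultured ILC2 3 and 4 was left out (adjusted p up to 1).

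**Figure D2:**
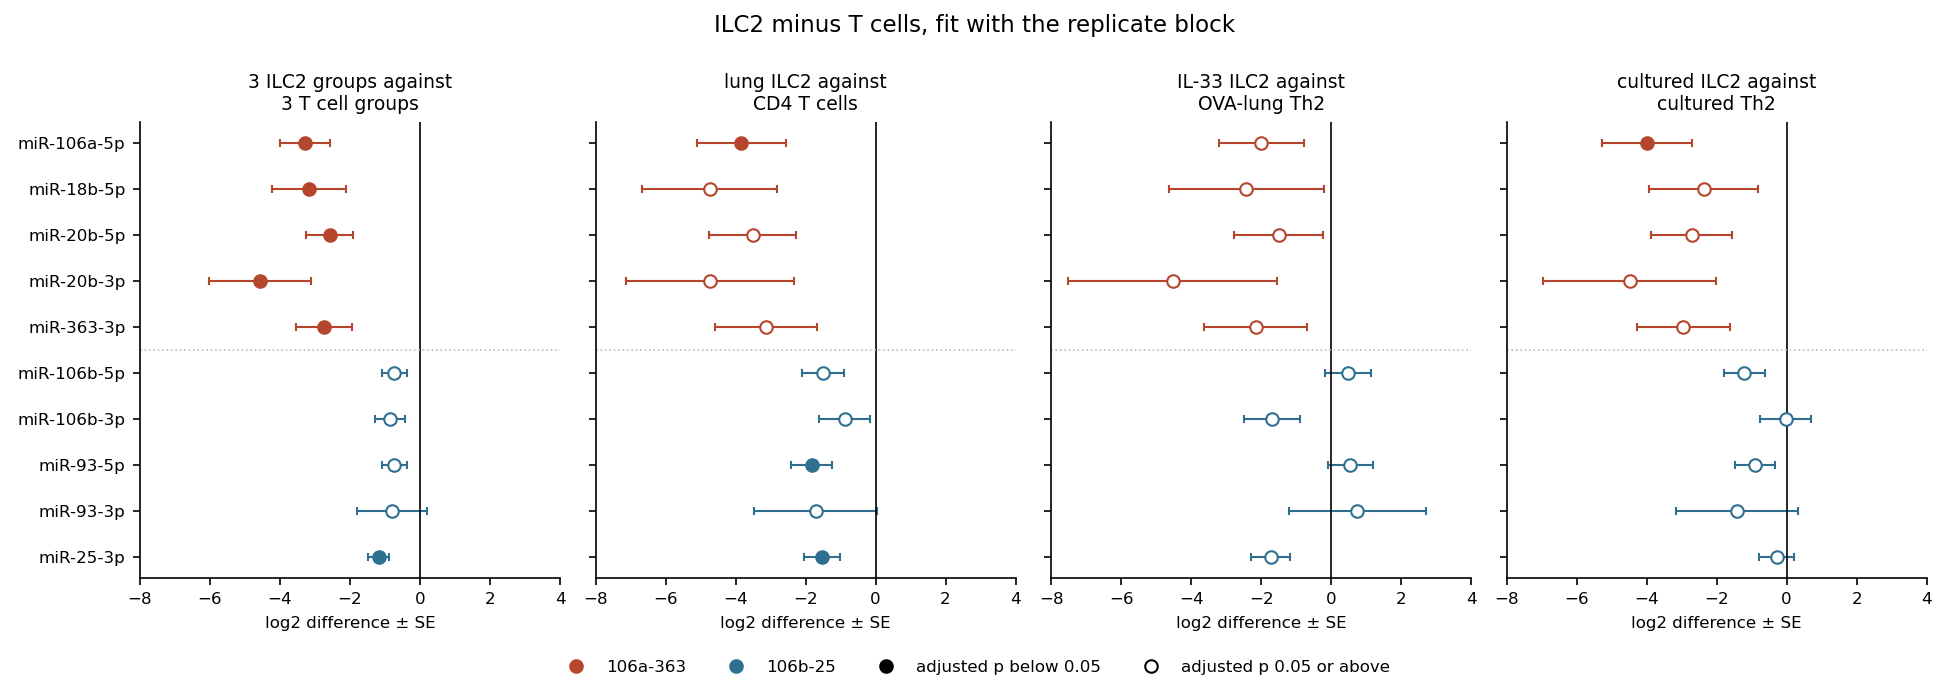
Log2 difference ± SE (x axis, ILC2 minus T cells, with the replicate block, TMM scaling) of each member (y axis) in the contrast of all ILC2 with all T cell groups and in the 3 pairs of corresponding populations. Filled points passed an adjusted p of 0.05: all 5 members of miR-106a-363 and miR-25-3p in the first panel, 3 members in the second, none in the third and 1 in the fourth. In the third panel the value of miR-20b-3p is fitted against a group without any count.

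Across the 6 groups, 1 of the 10 members was called without the block, miR-18b-5p (F = 5.00, adjusted p = 0.00833 in edgeR's test), beside a background of 18.8%. It kept the call when any 1 library was left out, with adjusted p from 0.00488 to 0.0273, but not with library totals in place of TMM (adjusted p = 0.0554). With the block 7 of 10 were called, beside a background of 41.1%. These were 4 members of miR-106a-363 (miR-106a-5p, miR-18b-5p, miR-20b-5p and miR-363-3p) and 3 of miR-106b-25 (miR-106b-5p, miR-106b-3p and miR-25-3p). Their adjusted p ran from 0.000755 for miR-18b-5p to 0.0497 for miR-106b-3p. miR-93-5p (adjusted p = 0.0522), miR-20b-3p (0.0927) and miR-93-3p (0.469) did not pass. The blocked calls of miR-20b-5p and miR-363-3p were lost without cultured Th2 library 4 (adjusted p = 0.0697 and 0.0614). That of miR-25-3p was lost without lung ILC2 library 2, CD4 T cell library 2 or OVA-lung Th2 library 1 or 3 (adjusted p up to 0.557). That of miR-106b-3p was lost in 11 of 23 fits (adjusted p up to 0.194), those without lung ILC2 3 or 4, IL-33 ILC2 1, 2 or 3, cultured ILC2 3 or 4, CD4 T cell library 3, OVA-lung Th2 1 or 3 or cultured Th2 4. With library totals and the block 2 of the 10 members were called.

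Lung ILC2 and CD4 T cells were compared as the resting populations of each lineage. Without the block 0 of 10 members were called by edgeR, beside a background of 1.04%, with 1 at an unadjusted p below 0.05 and 0 called by DESeq2. With the block 3 of 10 were lower in ILC2, beside a background of 12.5% called and 8.85% called lower. miR-106a-5p differed by −3.84 ± 1.27 (edgeR, adjusted p = 0.0373) and was lower in 4 of 4 sets. miR-93-5p differed by −1.83 ± 0.59 (adjusted p = 0.035) and miR-25-3p, the miR-106b-25 member with the miR-92a-3p seed, by −1.53 ± 0.52 (adjusted p = 0.0412). Each of these 2 was lower in 3 of 4 sets and higher in 1. The median was −3.84 over miR-106a-363, −1.53 over miR-106b-25 and −1.04 over all microRNAs. The last was −0.33 with size factors and −0.19 with library totals, and the calls split into 14 higher and 34 lower, 14 and 11, and 16 and 10. No member was called under either of these other scalings. miR-20b-5p was also lower in 4 of 4 sets (−3.51 ± 1.25, adjusted p = 0.0574). The share of tested microRNAs lower in 4 of 4 sets was not computed.

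These 3 calls depended on single libraries. With the block, that of miR-106a-5p was lost in 7 of 23 fits (adjusted p up to 0.128), without lung ILC2 3 or 4, CD4 T cell library 1 or 2, OVA-lung Th2 1 or 3 or cultured Th2 4. That of miR-93-5p was also lost in 7 (adjusted p up to 0.242), without lung ILC2 1, 3 or 4, CD4 T cell library 1, OVA-lung Th2 1 or 3 or cultured Th2 4. That of miR-25-3p was lost in 14 (adjusted p up to 0.306), without any 1 of the 4 lung ILC2 libraries, IL-33 ILC2 4, cultured ILC2 3 or 4, CD4 T cell library 2, 3 or 4, OVA-lung Th2 1 or 3 or cultured Th2 3 or 4. The endothelial microRNAs miR-126a-3p and miR-126a-5p together held 0.0256% to 2.16% of the lung ILC2 libraries against 0 to 0.0317% of CD4 T cells, with counts of both in both groups. Those of mesenchymal cells (miR-143-3p, miR-145a-5p and miR-199a-3p, 3 of 3 with counts) held 0.435% to 1.08% against 0.000924% to 0.0122%. Erythroid microRNAs held 0.0161% to 1.44% (median 0.128%) against 0.00123% to 0.338% (median 0.00717%), and miR-150-5p, abundant in resting lymphocytes, 0.0441% to 0.425% against 0.588% to 11.4%. Lung ILC2 were sorted through a CD45+Thy1+ gate, and the purity reached was not measured here. The part of these microRNAs in the differences of the members was not tested, and fewer cells of a type and less RNA per cell cannot be told apart in bulk libraries.

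For the populations activated in vivo, IL-33 ILC2 against OVA-lung Th2, 0 of 10 members were called by edgeR without the block (background 0%) and 0 with it (background 4.43%). At an unadjusted p below 0.05 there were 1 and 2, and DESeq2 called 0. In all 3 sets with both groups miR-106a-5p, miR-20b-5p, miR-363-3p, miR-106b-3p and miR-25-3p were lower in ILC2. With the block their log2 differences were −1.99 ± 1.22, −1.50 ± 1.28, −2.16 ± 1.47, −1.69 ± 0.80 and −1.73 ± 0.55, with adjusted p from 0.059 for miR-25-3p to 0.486. How many of all tested microRNAs were lower in all 3 of these sets was not counted. With the block and size factors in place of TMM miR-25-3p was called. The median was −2.16 over miR-106a-363 and 0.49 over miR-106b-25, beside 0.10 over all microRNAs. miR-20b-3p was at 0 in all IL-33 ILC2 libraries, where 3 counts are 2.02 to 33.5 CPM, and had counts in 1 of the 3 OVA-lung Th2 libraries (29.4 CPM), so no fold is given. Without it the median over the other miR-106a-363 members was −2.07. Erythroid microRNAs held a median of 0.0741% of the IL-33 ILC2 libraries (0% to 0.395%) against 0.617% in OVA-lung Th2 (0.0144% to 0.688%). For miR-150-5p, abundant in resting lymphocytes, the median was 0.0674% (0.0242% to 0.779%) against 4.24% (0.161% to 4.43%). Muscle microRNAs held at most 0.00613% against at most 0.584%. Their part in the differences of the members was not tested.

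For the cultured populations miR-106a-5p was again lower in ILC2, in the fit with the block. Without the block 0 of 10 members were called by edgeR (background 1.04%), 1 at an unadjusted p below 0.05, and DESeq2 called 2, miR-106a-5p and miR-363-3p. With the block 1 of 10 was called, beside a background of 12.5% called and 5.47% called lower. This was miR-106a-5p, lower in cultured ILC2 by −3.99 ± 1.29 (adjusted p = 0.0347), with 63.7 ± 80.8 CPM (SD, n = 4) against 836 ± 626 CPM (n = 4). It was lower in 4 of 4 sets, as were miR-18b-5p, miR-20b-5p, miR-363-3p and miR-106b-5p, at −2.37 ± 1.55, −2.71 ± 1.16, −2.95 ± 1.34 and −1.21 ± 0.59 (adjusted p from 0.133 to 0.401). How many of all tested microRNAs were lower in 4 of 4 sets was not counted. The median was −2.95 over miR-106a-363, −0.91 over miR-106b-25 and −0.53 over all microRNAs. The last was −0.86 with size factors and −0.02 with library totals, the splits of higher and lower calls being 27 and 21, 18 and 24, and 34 and 10. The call held with size factors (−4.11, adjusted p = 0.0357) and not with library totals. It was lost in 9 of 23 fits (adjusted p up to 0.161), without cultured ILC2 1, 2 or 3, CD4 T cell library 1 or 2, or any 1 of the 4 cultured Th2 libraries.

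Activation within a lineage called no member by edgeR with TMM scaling over all libraries, with or without the block. IL-33 ILC2 against lung ILC2 gave 0 of 10 without the block (background 0%) and with it (background 0.521%), and 0 at an unadjusted p below 0.05 in either fit. Cultured against lung ILC2 gave 0 of 10 in both fits (backgrounds 0.26% and 4.43%), with 1 and 2 at an unadjusted p below 0.05. The widest difference there was that of miR-18b-5p, 5.78 ± 1.96 with the block (adjusted p = 0.0855). OVA-lung Th2 against CD4 T cells gave 0 of 10 in both fits (backgrounds 0% and 6.25%), with 0 at an unadjusted p below 0.05. Cultured Th2 against CD4 T cells gave 0 of 10 in both fits (backgrounds 1.04% and 13.3%), with 0 and 2 at an unadjusted p below 0.05. There miR-18b-5p differed by 3.41 ± 1.60 (adjusted p = 0.172) and miR-106b-5p by 1.43 ± 0.60 (adjusted p = 0.116) with the block. With the block and size factors in place of TMM, 1 member was called in this last pair, miR-106b-5p. DESeq2 called miR-18b-5p there and no member in the first 3.

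Whether activation differed between the lineages was tested as an interaction. In vivo, 0 of 10 members were called without the block (background 0%) and with it (background 3.91%), with 0 and 2 at an unadjusted p below 0.05. The 2 were miR-93-5p, at 2.38 ± 0.87 (edgeR with the block, adjusted p = 0.125), and miR-106b-5p, at 1.98 ± 0.91 (adjusted p = 0.22), the change being higher in ILC2. In that fit the median over all 384 microRNAs was 1.22, against 0.03 with size factors and 0.45 with library totals, and the median over the 10 members was 1.92, 0.38 and 0.95. In culture 0 of 10 were called in both fits (backgrounds 0% and 1.30%), with 0 at an unadjusted p below 0.05, and DESeq2 called 0 in either interaction.

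The miR-106b-25 members, processed from the Mcm7 intron, varied by set more than by group. miR-93-5p stood at 4225, 15120, 20590 and 2147 CPM in lung ILC2 and at 18510, 12580, 27100 and 4835 CPM in CD4 T cells. Its group means ran from 10520 ± 8799 CPM in lung ILC2 (n = 4) to 15760 ± 9408 CPM in CD4 T cells (n = 4), and all 6 groups overlapped. miR-106b-5p had its lowest level of every group in set 4 where that group had a library there, from 308 CPM in cultured ILC2 to 1148 CPM in CD4 T cells. Its group means ran from 3256 ± 1824 CPM in lung ILC2 to 9279 ± 6356 CPM in cultured Th2.

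miR-25-3p followed another order of the sets. It stood at 874, 5308, 17020 and 20690 CPM in lung ILC2 and at 600, 9136, 28100 and 34730 CPM in CD4 T cells, and its lowest level in each group was in set 1. Group means ran from 5498 ± 4373 CPM in IL-33 ILC2 to 18140 ± 15950 CPM in CD4 T cells and all groups overlapped. miR-106b-3p, the other arm of the miR-106b hairpin, ran from 51.6 CPM in IL-33 ILC2 library 1 to 6074 CPM in cultured ILC2 library 4. miR-93-3p had counts in 12 of the 12 libraries of sets 1 and 2 and in 3 of the 11 of sets 3 and 4, and reached 357 CPM in IL-33 ILC2 library 2.

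Ratios inside the cluster also differed between sets. The log2 ratio of miR-106b-5p to miR-106b-3p (0.5 added to each count) averaged 4.00 ± 1.21, 3.30 ± 0.52 and 2.96 ± 1.73 in sets 1, 2 and 3 (SD, 6 libraries each) and −2.17 ± 1.45 in set 4 (5 libraries). The arm with more counts was therefore the 5′ arm in every library of the first 3 sets and the 3′ arm in every library of the fourth. Tables held 79.7% of the sum of squares of this ratio and groups 8.46%. The ratio of miR-93-5p to miR-93-3p is not divided in this way, since miR-93-3p was at 0 in 8 of the 11 libraries of sets 3 and 4 and the ratio there rests on the added 0.5. For miR-25-3p to miR-93-5p, which averaged −2.02, −1.04, −0.63 and 2.04 in sets 1 to 4, they were 63.6% and 4.43%. For miR-106b-5p to miR-93-5p they were 48.4% and 10.6%.

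**Figure D3:**
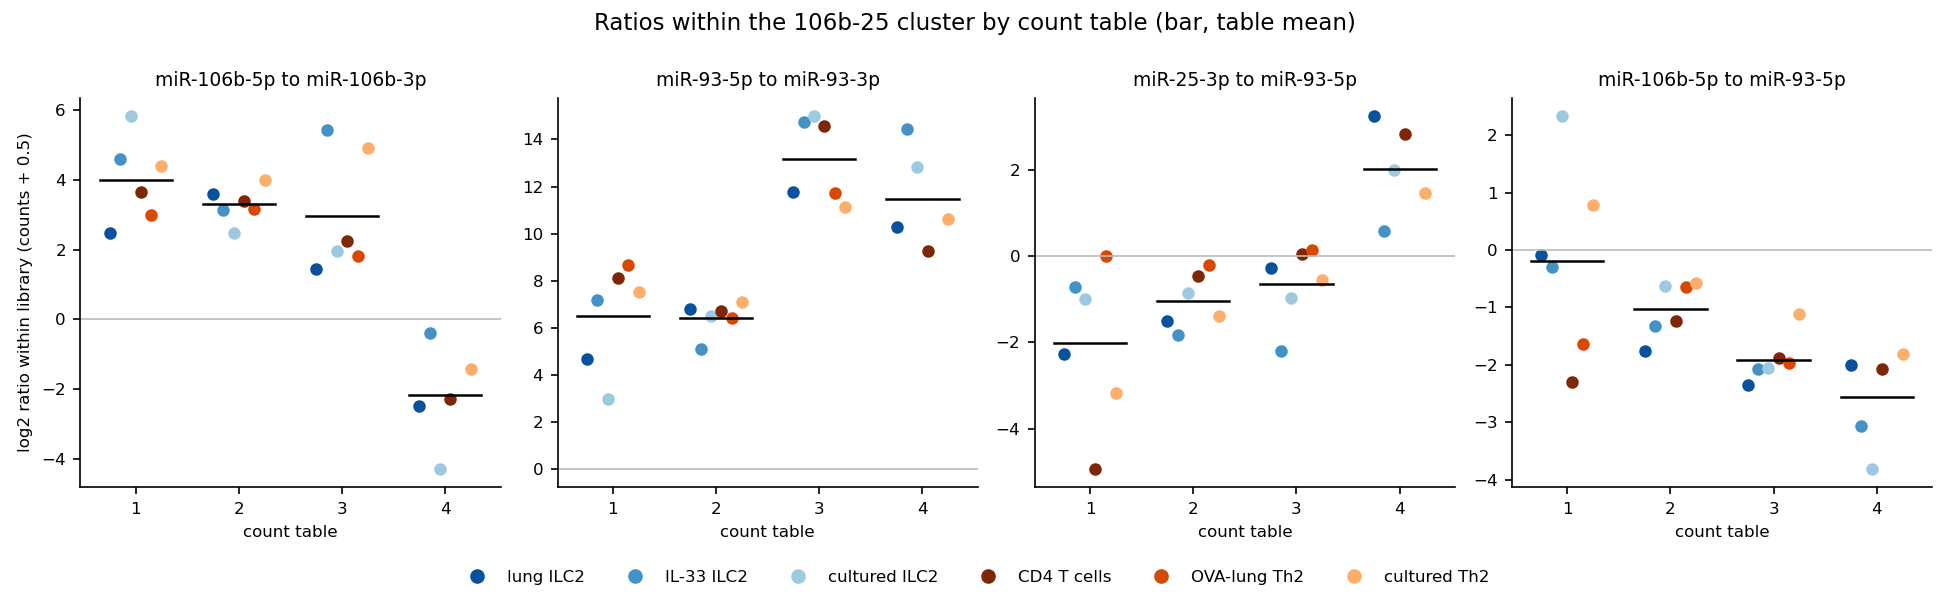
Within-library log2 ratios (y axis, 0.5 added to each count) of 4 pairs of miR-106b-25 members by set, or count table (x axis), with points for libraries coloured by group and bars for set means. The mean ratio of the miR-106b arms is 4.00, 3.30 and 2.96 in sets 1 to 3 and −2.17 in set 4, and the groups intermingle within sets. In 8 libraries of sets 3 and 4 miR-93-3p has no count, and the ratio with it rests on the added 0.5.

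The listed members of miR-106a-363 held a small share of all counts in every library, and those of miR-106b-25 a larger one. The 5 members of miR-106a-363 summed to 0.104%, 0.0455%, 0% and 0.000684% of the counts in lung ILC2, 0.0149%, 0.0435%, 0.0654% and 0.00803% in IL-33 ILC2, and 0.0176%, 0.104%, 0.0743% and 0.00673% in cultured ILC2. They summed to 0.217%, 0.369%, 0.154% and 0.0519% in CD4 T cells, 0.127%, 0.240% and 0.133% in OVA-lung Th2, and 0.217%, 0.697%, 0.264% and 0.0210% in cultured Th2. In each of the 4 sets every ILC2 library was below every T cell library, and this also held for the summed CPM with TMM and with size factors. The sum includes miR-20b-5p and miR-106a-5p, its most abundant members, so it is not separate from their results above. By library totals 1 of the 5 members was separated in all 4 sets and 2 in at least 3. No background was computed for sums. The count of 0 in lung ILC2 library 3 allows up to 35.0 CPM. The mean was 0.0376% in lung ILC2 and 0.0154% without its library 1, 0.0506% in cultured ILC2 and 0.0329% without its library 2, and 0.2995% in cultured Th2 and 0.167% without its library 2.

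For miR-106b-25 the lineages overlapped within each set. Its share averaged 2.62 ± 1.36% in lung ILC2, 2.23 ± 1.60% in IL-33 ILC2 and 2.82 ± 1.22% in cultured ILC2 (SD, n = 4 each). It averaged 4.03 ± 1.87% in CD4 T cells (n = 4), 2.70 ± 2.02% in OVA-lung Th2 (n = 3) and 2.91 ± 1.60% in cultured Th2 (n = 4), and lowest to highest library ran from 0.389% to 6.41%. Without library 3 the mean of OVA-lung Th2 was 1.60%. By library totals the lineages were separated in no set, with TMM also in none and with size factors in sets 1 and 3. The log2 ratio of the summed miR-106a-363 to the summed miR-106b-25 counts averaged −8.37 ± 4.59, −6.09 ± 1.39 and −6.38 ± 1.64 in the ILC2 groups, in the order above. It averaged −4.54 ± 1.67, −3.77 ± 1.25 and −3.85 ± 1.15 in the T cell groups. Every ILC2 library lay below every T cell library in sets 2, 3 and 4, but not in set 1, where lung ILC2 stood at −3.25. The lung ILC2 mean was −10.08 without library 1 and −6.88 without library 3, with the means without library 2 or 4 between these.

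**Figure D4:**
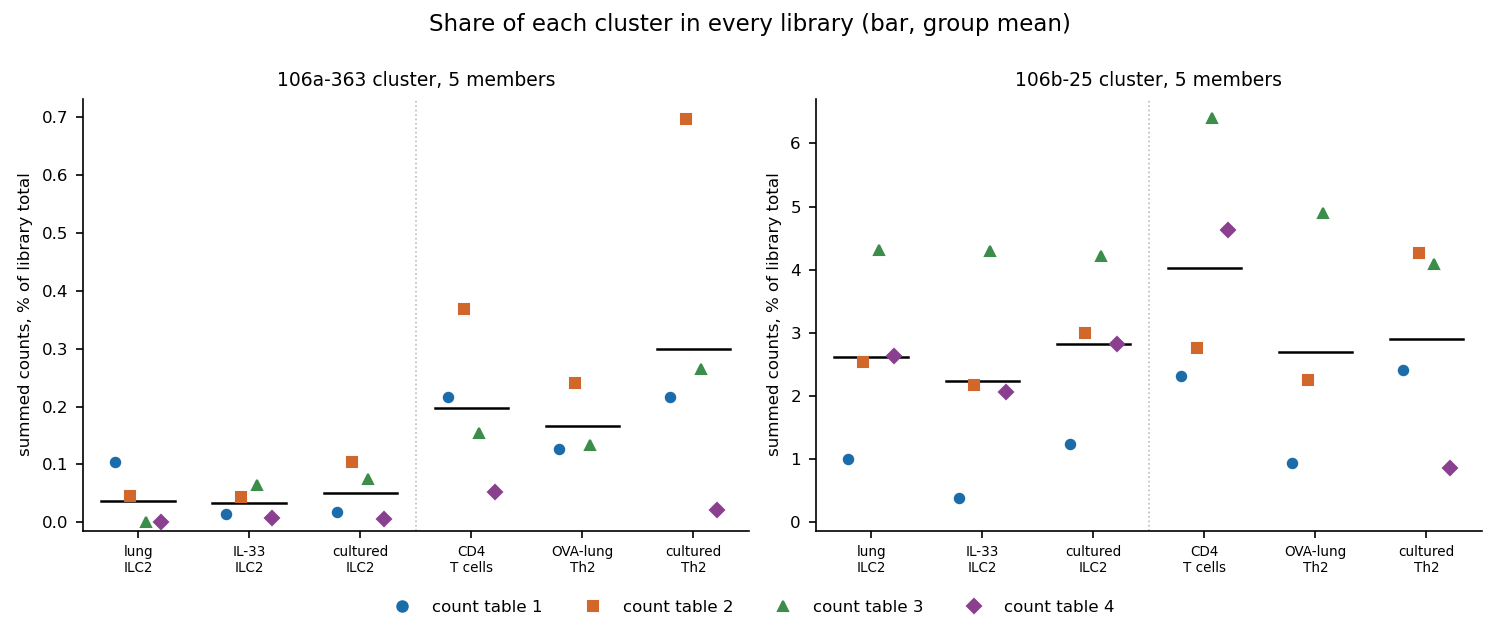
Summed counts of the 5 members of each cluster as a percentage of the library total (y axis) in each library, by group (x axis) and set (symbols), with bars for group means. The miR-106a-363 share is 0.104% or less in ILC2, and within each set all T cell libraries are above all ILC2 libraries, whereas the miR-106b-25 shares of the lineages overlap.

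Members at matching places of the clusters were compared as ratios within a library, 3 ratios in all. A ratio with a member at 0 rests on the 0.5 added to each count. Both members of a pair had counts in 21 of the 23 libraries, for each ratio. miR-106a-5p and miR-363-3p were at 0 in lung ILC2 libraries 3 and 4, and miR-20b-5p in lung ILC2 library 3 and IL-33 ILC2 library 1. These libraries enter the averages and tests below. The log2 ratio of miR-106a-5p to miR-106b-5p averaged −6.74 ± 2.60 in lung ILC2, −5.09 ± 1.51 in IL-33 ILC2 and −7.08 ± 3.17 in cultured ILC2 (n = 4 each). It averaged −3.58 ± 1.83 in CD4 T cells (n = 4), −2.38 ± 0.91 in OVA-lung Th2 (n = 3) and −3.50 ± 0.22 in cultured Th2 (n = 4). The ILC2 averages were below all T cell averages, but single libraries overlapped in sets 1, 3 and 4. A permutation test of the F statistic over the 6 groups (100000 resamples) gave p = 0.0291, adjusted over the 3 ratios p = 0.0667. With permutation within sets the adjusted p was 0.0299. The adjusted p over groups was 0.0428 with 5 in place of 0.5 added to each count, 0.0191 without lung ILC2 library 1 and 0.035 without cultured ILC2 library 4. With 1 added to each count the permutation test gave an adjusted p of 0.0555. In 21 of the 23 permutation tests leaving out a library it was not below 0.05 (adjusted p up to 0.109).

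For miR-20b-5p to miR-93-5p, both with the seed AAAGUGC, the ILC2 averages were −7.09 ± 3.74, −7.42 ± 2.22 and −5.42 ± 1.62 and the T cell averages −3.83 ± 0.79, −3.46 ± 1.43 and −3.59 ± 0.89, in the same order of groups. The lineages did not overlap in sets 2, 3 and 4. The permutation test gave p = 0.0444 (adjusted 0.0667, and 0.0572 within sets). The adjusted p over groups was 0.0428 with 5 added and 0.0191 without lung ILC2 library 1. With 1 added the permutation test gave an adjusted p of 0.0555. In 22 of the 23 permutation tests leaving out a library it was not below 0.05 (adjusted p up to 0.109). For miR-363-3p to miR-25-3p, both with the seed AUUGCAC, the averages were −8.54 ± 5.12, −7.61 ± 2.41 and −6.88 ± 1.78 in ILC2 and −5.23 ± 2.89, −6.11 ± 1.42 and −3.91 ± 1.90 in T cells. Its permutation p was 0.309 (adjusted 0.309) over groups and its adjusted p within sets was 0.0299. Without lung ILC2 library 1 the adjusted p over groups was 0.029. For this ratio too, 22 of the 23 permutation tests leaving out a library did not pass 0.05 (adjusted p up to 0.491). Tables held 52.9% of the sum of squares of this last ratio and groups 27.6%, against 22.9% and 49% for the first ratio and 15.8% and 45.6% for the second.

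**Figure D5:**
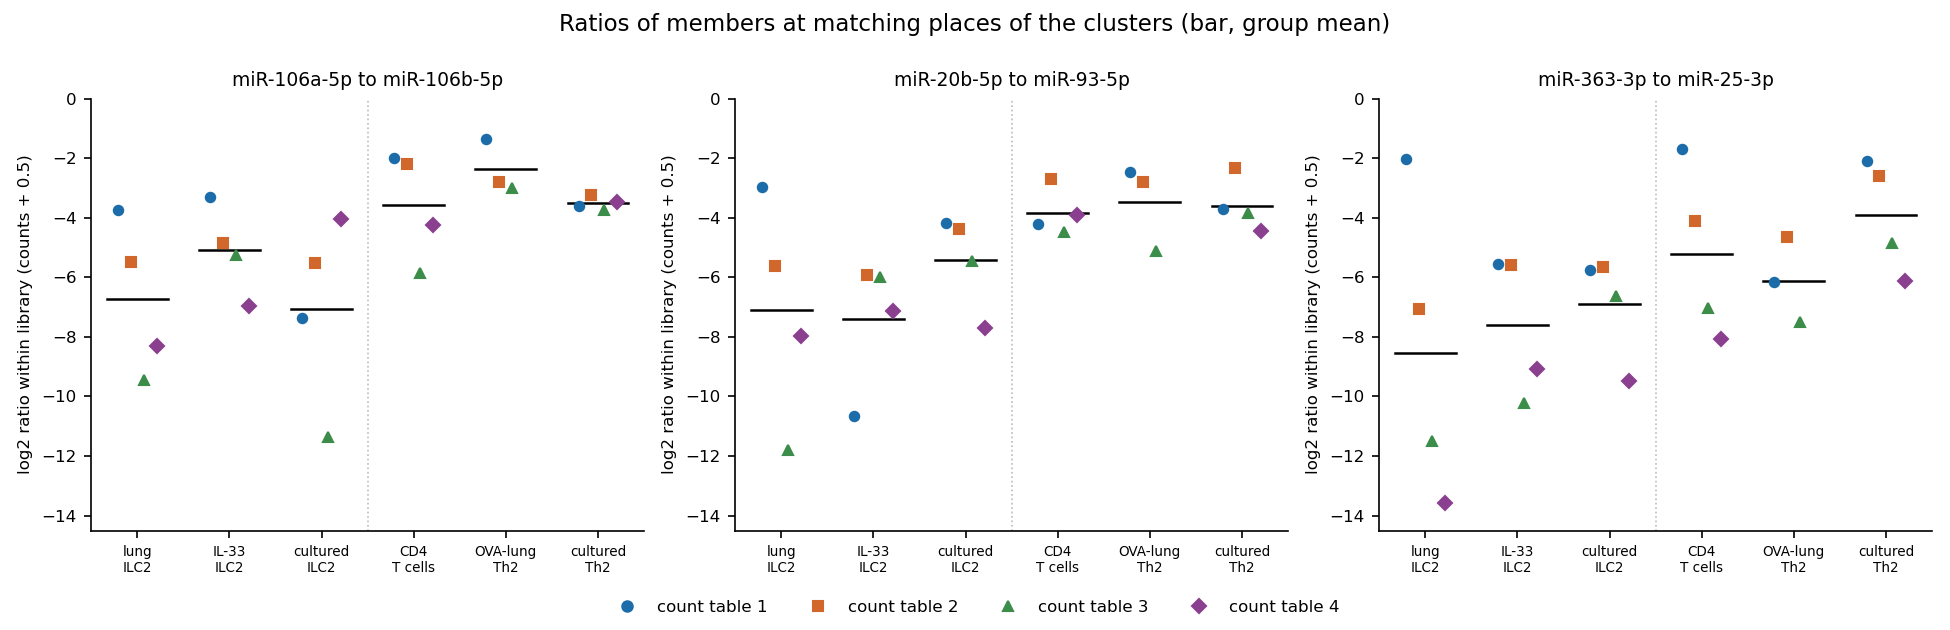
Within-library log2 ratios (y axis, 0.5 added to each count) of the 3 pairs of members at matching places, by group (x axis) and set (symbols), with bars for group means. The group means of the first 2 ratios lie between −7.42 and −5.09 in ILC2 and between −3.83 and −2.38 in T cells. Where a member has no count, the ratio rests on the added 0.5.

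Some arms of the miR-17-92 cluster were also lower in ILC2. Its arms miR-19b-3p and miR-92a-3p are also encoded in the X-linked cluster, so their counts are not those of miR-17-92 alone. Of its 12 listed arms 11 were tested, and in the contrast of all ILC2 with all T cell groups 1 was called lower without the block (miR-17-5p, −2.55 ± 0.69, adjusted p = 0.0129 in edgeR's test) and 6 with it, none higher, beside backgrounds of 5.47% and 14.3% called lower. With the block miR-17-5p differed by −2.28 ± 0.35 (adjusted p = 4.19e-06), and miR-19b-3p by −2.12 ± 0.48 (adjusted p = 0.00124). miR-19a-3p (−2.75 ± 0.77), miR-18a-3p (−3.64 ± 1.17), miR-92a-1-5p (−3.24 ± 1.17) and miR-92a-3p (−0.94 ± 0.29) were the others called. The near copies miR-20a-5p (−1.02 ± 0.51, adjusted p = 0.141) and miR-18a-5p (−0.92 ± 0.65, adjusted p = 0.305) were not. The list's median was −2.12. Across the 6 groups 2 of its arms were called without the block, miR-17-5p and miR-92a-1-5p, and 8 with it, beside backgrounds of 18.8% and 41.1%.

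In the single pairs the block added calls for this cluster as well. miR-17-5p was lower in lung ILC2 against CD4 T cells (−2.27 ± 0.60, edgeR adjusted p = 0.00972) and in cultured ILC2 against cultured Th2 (−2.61 ± 0.61, adjusted p = 0.00447). It was higher in cultured Th2 than in CD4 T cells (2.08 ± 0.59, adjusted p = 0.0212). miR-92a-3p was lower in lung ILC2 against CD4 T cells (−1.72 ± 0.49, adjusted p = 0.017), and miR-19b-3p in IL-33 ILC2 than in OVA-lung Th2 (−3.19 ± 0.92, adjusted p = 0.0417). Without the block none of these was called in a pair.

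The ratio of miR-20b-5p to its near copy miR-20a-5p overlapped between the lineages. Its log2 average was 0.29 ± 0.52 in CD4 T cells, −0.72 ± 1.18 in OVA-lung Th2 and, for cultured Th2, −0.50 ± 0.68. It was −3.60 ± 3.15 in lung ILC2, −1.05 ± 1.14 in IL-33 ILC2 (with both at 0 in library 1) and −3.12 ± 1.48 in cultured ILC2, where miR-20a-5p reached 9440 CPM against 626 CPM of miR-20b-5p in library 2. Within sets the lineages were separated only in set 2. The ratio of miR-106a-5p to miR-17-5p averaged −4.84 ± 1.16, −3.87 ± 0.84 and −5.57 ± 2.29 in the ILC2 groups and −2.70 ± 0.81, −3.57 ± 0.94 and −3.31 ± 0.85 in the T cell groups, separated in sets 2 and 4. These ratios are descriptions, chosen after the values were seen, with no test. They rest on 0.5 added to each count where a member had none. In lung ILC2 this holds for miR-20b-5p in library 3 and for miR-106a-5p in libraries 3 and 4.

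By the SD over the 23 libraries of the within-library log2 ratio, among 203 microRNAs with enough counts, the one most like miR-20b-5p was its cluster neighbour miR-363-3p (SD 1.88). Next were miR-33-5p (1.90), miR-29b-3p (1.91), miR-20a-5p (2.05) and miR-128-3p (2.12), while miR-106a-5p ranked 15 (2.48). Those most like miR-93-5p were miR-484 (1.10), miR-27b-3p (1.19) and let-7g-5p (1.23), followed by its neighbour miR-106b-5p (1.29) and miR-30e-5p (1.30). The other neighbour, miR-25-3p, ranked 25 (1.85), and miR-20b-5p, with the same seed as miR-93-5p, ranked 77 (2.47). All libraries share sets and depths in these values.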

How the data were processed

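The authors deposited 4 tables of expected counts per mature microRNA and a table of RPM, scaled so that each library sums to 1000000. Per the labels the count tables come from exceRpt, and per the submitters' processing notes the build was mm10 and DESeq2 was used. The sources used here do not give the aligner, trimming or counting rules. Of the deposited columns 46 were used and 6 authors' group averages were not. Of the count values above 0, 9.98% were fractional, none of them among the 230 member values. Counts were rounded and fitted in edgeR 4.0.16 (R 4.3.3) with TMM scaling, filterByExpr by group and the robust quasi-likelihood F-test over all 6 groups, Benjamini-Hochberg adjusted over 384 microRNAs with calls at 0.05. The alternative fit has the replicate number as a block. Per the labels each number belongs to 1 count table, which pairs its libraries. Over 204 microRNAs, 51 of 55 same-number pairs deviated together with a correlation above 0.1 (−0.04 to 0.76, median 0.38, against −0.15 between numbers), and 22 of 23 libraries were closest to their own number. The biological coefficient of variation was 1.54 without and 1.13 with the block. TMM factors ran from 0.20 to 2.66. No 2 libraries were identical. Ratios were tested by permutation in Python 3.11.15 with numpy 2.4.6. The edgeR fit and the permutation test were also run on simulated data without differences between sets. Error rates under the spread and set differences of these data were thus not measured. Alternatives were DESeq2 1.42.0, limma 3.58.1 on log2(RPM + 1) and log2(RPM + 10), other scalings, no filter, and leaving out each library. Named microRNAs are all members, the called or near-copy arms of miR-17-92, and the 5 most like each cluster's leading member. Members and lists were chosen with earlier results of these data known. Sequences are from RefSeq (GRCm38.p6) and host genes from GENCODE.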

Additional observations from a re-analysis of the deposited data

Results flagged for a closer look

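Each member level, matching-place ratio and cluster share was examined within each group of 4 libraries for a library apart from the others. Of the 74 such series with differing values, which share libraries, 6 were noted. Lung ILC2 library 4 had 537 CPM of miR-106b-5p against 3999 CPM in the next library, and it belongs to set 4, where this arm was at its lowest in all 5 groups with a library there. IL-33 ILC2 library 2 had 357 CPM of miR-93-3p against 9.91 CPM in the next. The other 4 were the only library of their group with a count, which is noted whatever its size, so the rate of about 1 in 20 that chance gives does not apply to them: 3.54 CPM of miR-18b-5p and 5.66 CPM of miR-20b-3p in lung ILC2 library 2, 0.675 CPM of miR-18b-5p in IL-33 ILC2 library 4 and 4.51 CPM of miR-20b-3p in cultured ILC2 library 2.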

How the results depend on the processing

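Across the 6 groups 1 member was called without the block, 0 with library totals, 4 by DESeq2, 7 with the replicate block, and 6 and 2 with the block and size factors or library totals. For lung ILC2 against CD4 T cells 0 became 3 with the block. For cultured Th2 against CD4 T cells 0 became 1 by DESeq2 and 1 with the block and size factors. Between the populations activated in vivo 0 became 1 with the block and size factors. For the cultured pair 0 became 2 by DESeq2, 1 with the block and 1 with the block and size factors. For all ILC2 against all T cell groups 2 became 5 with size factors, 1 with library totals or no filter, 4 by DESeq2, and 6, 6 and 4 with the block under the 3 scalings. The cause was not tested. Leaving out each library gave 1 to 3 calls across the 6 groups (4 to 8 with the block), 0 to 5 for lung ILC2 against CD4 T cells with the block, and 0 to 4 (4 to 6 with the block) for all ILC2 against all T cell groups. With the block it gave 0 to 1 in the other pairs of lineages, for OVA-lung Th2 against CD4 T cells and for the interaction in vivo. The F of the miR-106a-5p to miR-106b-5p ratio was 3.27, 3.48 with 5 added to each count, 5.33 with the block and 2.63 to 4.40 leaving out a library. That of miR-20b-5p to miR-93-5p was 2.85, 3.39 with 5 added and 2.39 to 4.98. That of miR-363-3p to miR-25-3p was 1.30, 4.95 with the block and 0.92 to 3.31. Leaving out lung ILC2 library 1 put all 3 below an adjusted p of 0.05. Of the 23 such permutation tests for each ratio, 21, 22 and 22 did not pass, in this order of the ratios. Without miR-20b-5p the miR-106a-363 share in OVA-lung Th2 was 0.0819% (0.167% with it). A sum cannot rise when a member is left out, and separation of the lineages without miR-20b-5p was not examined. Depth limits the sparse members, since 3 counts are up to 35.3 CPM.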
